A study of Danio rerio with 12 samples.

Results

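The genes described here mark or shape the endothelium, the cell layer that lines blood vessels. They were chosen by name, from 38 listed zebrafish names, and matched 40 Ensembl gene IDs of the 32520 in the count table. Of these IDs, 20 carried the listed zebrafish symbol, 17 carried only the symbol of an orthologue and 3 were found by a synonym. The synonyms gave fli1a, fli1b and pecam1. The listed names cldn5b and efnb2a were present only under the orthologue symbols CLDN5 and EFNB2, each on 2 IDs, and both copies were kept and are named with their IDs. A total of 39 IDs passed the filter on low counts. The remaining one, plvapa (ENSDARG00000076972), had 0 to 4 counts per library and was not tested.

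RNA of whole zebrafish embryos was sequenced from moonshine (mon) mutants, which carry a mutation of trim33 and lack red blood cells, and from their siblings. Carriers heterozygous for mon were mated, 1 parent line also bearing the drl:EGFP transgene, and mutants were recognised by their weak green fluorescence. Siblings were labelled wild-type/het and may include heterozygous carriers. The 4 groups were untreated mon and sibling embryos at 22 and at 30 hours post fertilization (hpf), with 3 libraries each. Every library came from a pool of 30 embryos of 1 clutch, the offspring of a single mating. Clutches 9, 11 and 13 were sampled at 22 hpf and clutches 3, 4 and 9 at 30 hpf, each as a mon and a sibling pool. Values of single libraries are given in that order of clutches.

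Endothelial cells arise from mesoderm next to the precursors of the first red blood cells, and several early regulators serve both lineages. VEGF receptors and Notch signalling sort the cells into arteries and veins, junction proteins hold them together around a lumen, and scavenger receptors clear molecules from the blood in veins and later in lymphatic vessels. In zebrafish, blood begins to circulate between the stages sampled here, and the stress of flowing blood is a known signal to the endothelium. The comparison of mon with siblings thus bears on whether vessel genes are expressed normally when red blood cells are missing. In mon the vessels carry the trim33 mutation too, so its effects and those of lacking red blood cells cannot be told apart. RNA levels do not show the form of a vessel.

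Libraries held 18233320 to 23135676 counts. Levels are CPM, read counts relative to the library total, after TMM correction between libraries. A gene counts as called where its Benjamini-Hochberg adjusted p was under 0.05. The targeted gene trim33 stood at 50.7, 57.6 and 67.7 in mon and 85.7, 84.2 and 89.4 in siblings at 22 hpf, and at 72.8, 72.8 and 71.7 in mon and 75.5, 76.3 and 78 in siblings at 30 hpf, in CPM. Every mon library lay below every sibling library of its stage. All 9 markers of red blood cells had a lower fitted level in mon at each stage, and 8 were called. Their summed level was 12 to 14 CPM in mon against 323 to 361 CPM in siblings at 22 hpf and 19.5 to 23.7 against 1590 to 1780 CPM at 30 hpf. The 6 defining markers of endothelium (kdrl, cdh5, tie1, fli1a, egfl7, erg) were detected in all 12 libraries, the lowest value being 1.55 CPM for erg. Each library is a whole embryo pool, in which fewer cells of a type and less RNA per cell cannot be told apart, and genes such as notch3, nrp1a and ephb4a are also used by other tissues.

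Vessel genes were expressed in mon embryos, and the fitted difference from siblings was under 2-fold for all 39 tested genes at both stages. The largest log2 fold change (mon over sibling) in either direction was -0.87 at 22 hpf, for lyve1b, and 0.43 at 30 hpf, for erg. At 22 hpf, 0 of the 39 tested genes were called between mon and siblings in edgeR's quasi-likelihood test, where 0.445% of all 21778 tested genes were called. An unadjusted p under 0.05 was found for 5 of the 39 and for 935 of all genes. At 30 hpf, again 0 of 39 were called, against 0.79% of all genes, and 0 had an unadjusted p under 0.05, against 1210 of all genes. DESeq2 and limma-voom also called 0 at 30 hpf, and so did a fit with clutch as a block, which called 3.09% of all genes. At 22 hpf the clutch block called 2 genes, stab2 lower and nrp1a higher in mon, where it called 1.48% of all genes (0.845% lower, 0.634% higher). At 22 hpf DESeq2 and limma-voom called 0. With the block an unadjusted p under 0.05 was found for 9 of the 39 genes at 22 hpf, against 8.59% of all genes. Of these, kdr and nrp1a were higher in mon, and tie1, cdh5, esama, clec14a, stab2, mrc1a and lyve1b were lower. At 30 hpf it was found for 6 (kdr, tie1, she and stab2 higher in mon, notch3 and s1pr1 lower), against 12.3%.

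The intervals around these differences were narrow for most genes. At 22 hpf the 95% interval of the fold change lay within 1.5-fold in either direction for 26 of 39 genes (66.7%, against 54.4% of all genes) and within 2-fold for 37. At 30 hpf the counts were 33 (84.6%, against 54.9%) and 38. These shares were not matched for level. The 39 genes had a higher mean log2 CPM than all genes (3.85 against 2.90 in siblings at 22 hpf) and a smaller median standard error (0.138 against 0.185 at 22 hpf). The median log2 fold change (mon over sibling) was -0.088 at 22 hpf, with 26 genes below 0 and 13 above, and 0.037 at 30 hpf, with 15 below and 24 above. Over all genes the medians were 0.003 and 0.002. Within clutches, 12 genes were lower and 6 higher in mon in all 3 pairs at 22 hpf, and 3 lower and 9 higher at 30 hpf. The share of all genes with all 3 pairs in the same direction was not counted, so these counts have no background to be read against. The groups did not overlap for 6 genes at 22 hpf and for 4 at 30 hpf, against 8.45% and 12.3% of all genes.

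**Figure D1:**
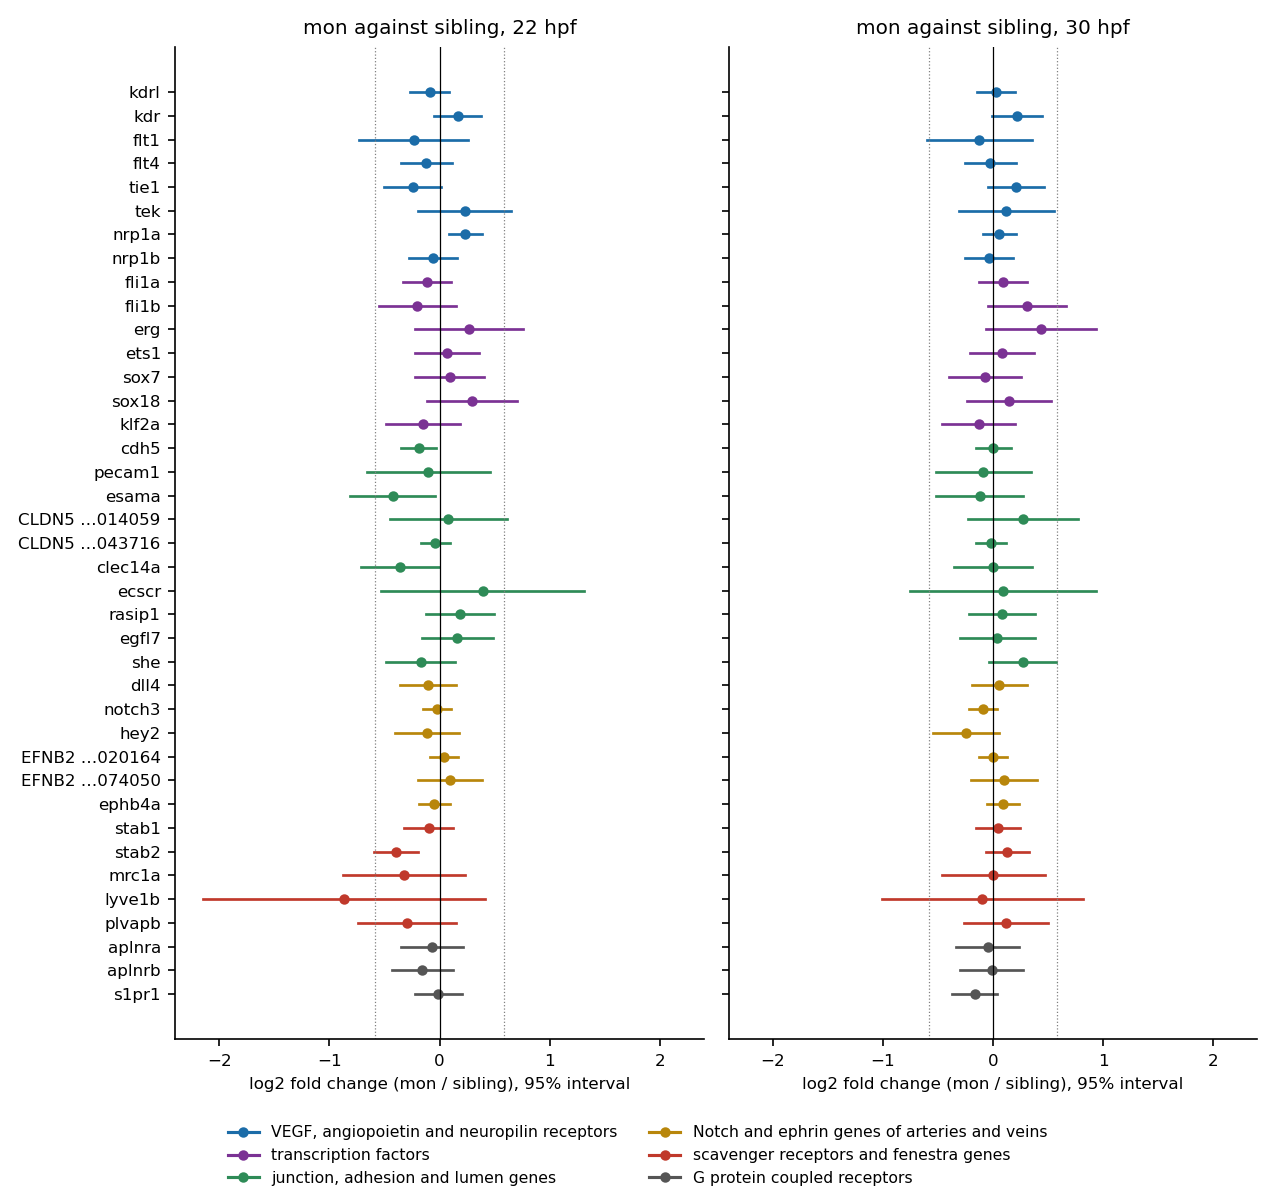
Difference between mon and sibling embryos for the 39 tested endothelial genes at 22 hpf (left) and 30 hpf (right). Points are log2 fold changes, bars are 95% intervals from edgeR, dotted lines mark a 1.5-fold change, colours mark the role, and copies of CLDN5 and EFNB2 carry the last digits of their IDs. No gene was called at either stage in the fit shown, which has no clutch block. With the block stab2 and nrp1a were called at 22 hpf. The 5 scavenger receptor and fenestra genes all lie left of 0 at 22 hpf.

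Receptors for VEGF and angiopoietin showed no called difference. The level of kdrl, a VEGF receptor and the usual reporter gene of zebrafish endothelium, was 39.1, 35.9 and 31.9 in mon and 39.5, 38.1 and 36.1 in siblings at 22 hpf, and 45.5, 50.2 and 45.6 in mon and 45.2, 48.2 and 45.1 in siblings at 30 hpf. The groups overlapped at both stages. The log2 fold change was -0.09 ± 0.08 (SE) at 22 hpf, with a 95% interval of -0.26 to 0.09, and 0.03 ± 0.08 at 30 hpf, with an interval of -0.15 to 0.20 (edgeR adjusted p = 1.0 at both). Its paralogue kdr (ENSDARG00000017321) had the smallest p of the 39 genes at 30 hpf. The level of kdr was 66.4, 71.2 and 74 in mon and 58.1, 68.7 and 61.8 in siblings at 22 hpf, and 31.7, 31.1 and 23.8 in mon and 26.8, 24.8 and 22.7 in siblings at 30 hpf. It was higher in mon in all 3 clutch pairs at each stage, but the ranges of the groups overlapped, with log2 fold changes of 0.17 ± 0.10 and 0.22 ± 0.11 (edgeR adjusted p = 1.0 and 0.904). The lymphatic and venous receptor flt4 stood at 15, 18.8 and 18.1 in mon and 18.7, 19 and 18.7 in siblings at 22 hpf, and at 19, 18.7 and 20.1 in mon and 17.4, 21.6 and 19.8 in siblings at 30 hpf. These ranges overlapped too, with log2 fold changes of -0.12 ± 0.11 and -0.02 ± 0.11 (edgeR adjusted p = 1.0 at both). The remaining VEGF and angiopoietin receptors flt1, tie1 and tek had log2 fold changes from -0.24 (tie1) to 0.23 (tek) at 22 hpf and from -0.12 (flt1) to 0.21 (tie1) at 30 hpf. Of these, tie1 was lower in mon in all 3 clutch pairs at 22 hpf, with overlapping groups. At 30 hpf tie1 was higher in mon in all 3 pairs, and every mon library lay above every sibling library. The clutch block called tie1 at neither stage (edgeR adjusted p = 0.208 and 0.222).

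Among the neuropilins, co-receptors for VEGF in vessels and for semaphorins in neurons, nrp1a lay higher in mon at 22 hpf. Its level was 147.9, 142.6 and 162.6 in mon and 118.3, 138.9 and 128.1 in siblings, and every mon library lay above every sibling library. The log2 fold change was 0.23 ± 0.07 (edgeR adjusted p = 0.416). The clutch block called it, at 0.23 ± 0.05 (edgeR adjusted p = 0.00405). Neuron markers summed to 250 to 286 CPM in mon and 258 to 264 CPM in siblings, with 0 of 7 called. Their part in the nrp1a difference was not tested. At 30 hpf nrp1a stood at 95.7, 98 and 88.7 in mon and 87.1, 89.3 and 95 in siblings, with overlapping groups and a log2 fold change of 0.06 ± 0.07. The other neuropilin, nrp1b, differed by -0.06 ± 0.10 and -0.03 ± 0.10 on the log2 scale.

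Of the 7 transcription factors of the endothelial programme, 0 were called at 22 and at 30 hpf, where 0.445% and 0.79% of all genes were called. With the block 0 were called as well, where 1.48% and 3.09% of all genes were. The ETS factor fli1a (ENSDARG00000054632), whose promoter drives many vessel reporters, stood at 33.5, 26.3 and 27.2 in mon and 31.6, 29.9 and 32.5 in siblings at 22 hpf, and at 30.9, 30.8 and 31.8 in mon and 26.6, 33.1 and 28.3 in siblings at 30 hpf. The mon library of clutch 9 was the highest of the 22 hpf libraries and those of clutches 11 and 13 were the lowest, so the groups overlapped. The log2 fold changes were -0.11 ± 0.10 and 0.09 ± 0.10 (edgeR adjusted p = 1.0 at both). Its relative fli1b (ENSDARG00000040080) stood at 6.1, 6.45 and 6.34 in mon and 8.19, 7.31 and 6.21 in siblings at 22 hpf, and 5.57, 6.42 and 6.12 in mon and 4.89, 5.61 and 4.08 in siblings at 30 hpf. The groups overlapped at 22 hpf and at 30 hpf, and the direction was not the same at the stages, -0.20 ± 0.17 and 0.31 ± 0.17 (edgeR adjusted p = 1.0 and 0.972). Another ETS factor, erg, stood at 3.29, 2.91 and 2.68 in mon and 2.6, 2.64 and 2.16 in siblings at 22 hpf, and 2.56, 2.37 and 2.7 in mon and 1.82, 1.55 and 2.27 in siblings at 30 hpf. The mon libraries of erg lay above the sibling libraries at both stages, by 0.27 ± 0.23 and 0.43 ± 0.24 on the log2 scale (edgeR adjusted p = 1.0 and 0.972).

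The factor klf2a, which in zebrafish endothelium responds to blood flow, stood at 6.15, 4.99 and 6.6 in mon and 6.16, 7.31 and 6.16 in siblings at 22 hpf, and at 6.16, 7.1 and 6.34 in mon and 6.94, 7.02 and 7.51 in siblings at 30 hpf. The groups overlapped at both stages, and the log2 fold changes were -0.15 ± 0.16 (95% interval -0.48 to 0.19) and -0.13 ± 0.16 (-0.46 to 0.20), each with an edgeR adjusted p of 1.0. The ETS factor ets1 and the SOX factors sox7 and sox18, which act in artery and vein formation, differed by 0.07, 0.09 and 0.30 at 22 hpf and by 0.08, -0.07 and 0.15 at 30 hpf on the log2 scale, with 0 of the 3 called.

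Junction genes included 3 of the 5 genes with an unadjusted p under 0.05 at 22 hpf, cdh5, esama and clec14a, all lower in mon. The junction cadherin cdh5 (VE-cadherin) stood at 40.4, 37.3 and 40.8 in mon and 48.5, 45.7 and 40.9 in siblings. The highest mon library lay just below the lowest sibling library, both of clutch 13, and the log2 fold change was -0.19 ± 0.07 (edgeR adjusted p = 0.898). At 30 hpf cdh5 stood at 57.7, 55.2 and 55.4 in mon and 56.5, 53.8 and 57.4 in siblings, with overlapping groups and a log2 fold change of 0.00 ± 0.07 (95% interval -0.15 to 0.16, edgeR adjusted p = 1.0). The adhesion gene esama stood at 5.62, 5.27 and 4.4 in mon and 7.13, 6.57 and 6.88 in siblings at 22 hpf, without overlap, and at 5.86, 4.64 and 3.95 in mon and 4.49, 5.97 and 5.24 in siblings at 30 hpf, with overlap. Its log2 fold changes were -0.43 ± 0.18 and -0.12 ± 0.19 (edgeR adjusted p = 1.0 at both). The endothelial lectin gene clec14a differed by -0.36 ± 0.17 at 22 hpf and 0.00 ± 0.17 at 30 hpf.

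The adaptor gene she had one of the smallest p values at 30 hpf. It stood at 8.81, 8.63 and 8.38 in mon and 11.1, 7.91 and 10.1 in siblings at 22 hpf, and at 9.7, 11.5 and 12.1 in mon and 9.39, 9.78 and 8.51 in siblings at 30 hpf, with log2 fold changes of -0.17 ± 0.15 and 0.27 ± 0.14 (edgeR adjusted p = 1.0 and 0.971). The groups overlapped at both stages. The adhesion gene pecam1, the tight junction gene CLDN5 in its copies ENSDARG00000014059 and ENSDARG00000043716, the lumen gene rasip1, the secreted factor egfl7 and the surface protein gene ecscr differed by -0.10 (pecam1) to 0.39 (ecscr) at 22 hpf and by -0.09 (pecam1) to 0.27 (CLDN5 ENSDARG00000014059) at 30 hpf on the log2 scale. The value of ecscr rests on 8 to 61 counts per library.

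Arterial and venous identity genes showed no called difference. The arterial Notch ligand dll4 stood at 11.7, 11.6 and 10.1 in mon and 11.3, 11.2 and 13.4 in siblings at 22 hpf, and at 11.9, 12.8 and 12.9 in mon and 12.3, 11.4 and 12.4 in siblings at 30 hpf. The groups overlapped at both stages, and the log2 fold changes were -0.10 ± 0.12 (95% interval -0.36 to 0.15) and 0.06 ± 0.12 (-0.19 to 0.31). The venous receptor ephb4a stood at 104.3, 117.2 and 119.8 in mon and 110.4, 120.4 and 121.5 in siblings at 22 hpf, and at 82.7, 79.4 and 75.4 in mon and 72.5, 73.5 and 76.6 in siblings at 30 hpf. These groups overlapped too, with log2 fold changes of -0.05 ± 0.07 (-0.19 to 0.10) and 0.09 ± 0.07 (-0.05 to 0.23), and the edgeR adjusted p was 1.0 for both genes at both stages. The Notch receptor notch3, its arterial target hey2 and both copies of EFNB2, the ligand of EPHB4, differed by -0.12 (hey2) to 0.10 (EFNB2 ENSDARG00000074050) at 22 hpf and by -0.25 (hey2) to 0.10 (EFNB2 ENSDARG00000074050) at 30 hpf on the log2 scale. For all 6 IDs of this group the 95% interval lay within 1.5-fold at each stage. Of these, notch3 and ephb4a are also used by other tissues, and notch3 averaged 863 CPM in siblings at 22 hpf, against 12 for dll4. The part of vessels in these levels was not measured. The receptors aplnra and aplnrb, for apelin, and s1pr1, for sphingosine 1-phosphate, differed by -0.16 (aplnrb) to -0.01 (s1pr1) at 22 hpf and by -0.17 (s1pr1) to -0.01 (aplnrb) at 30 hpf.

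**Figure D2:**
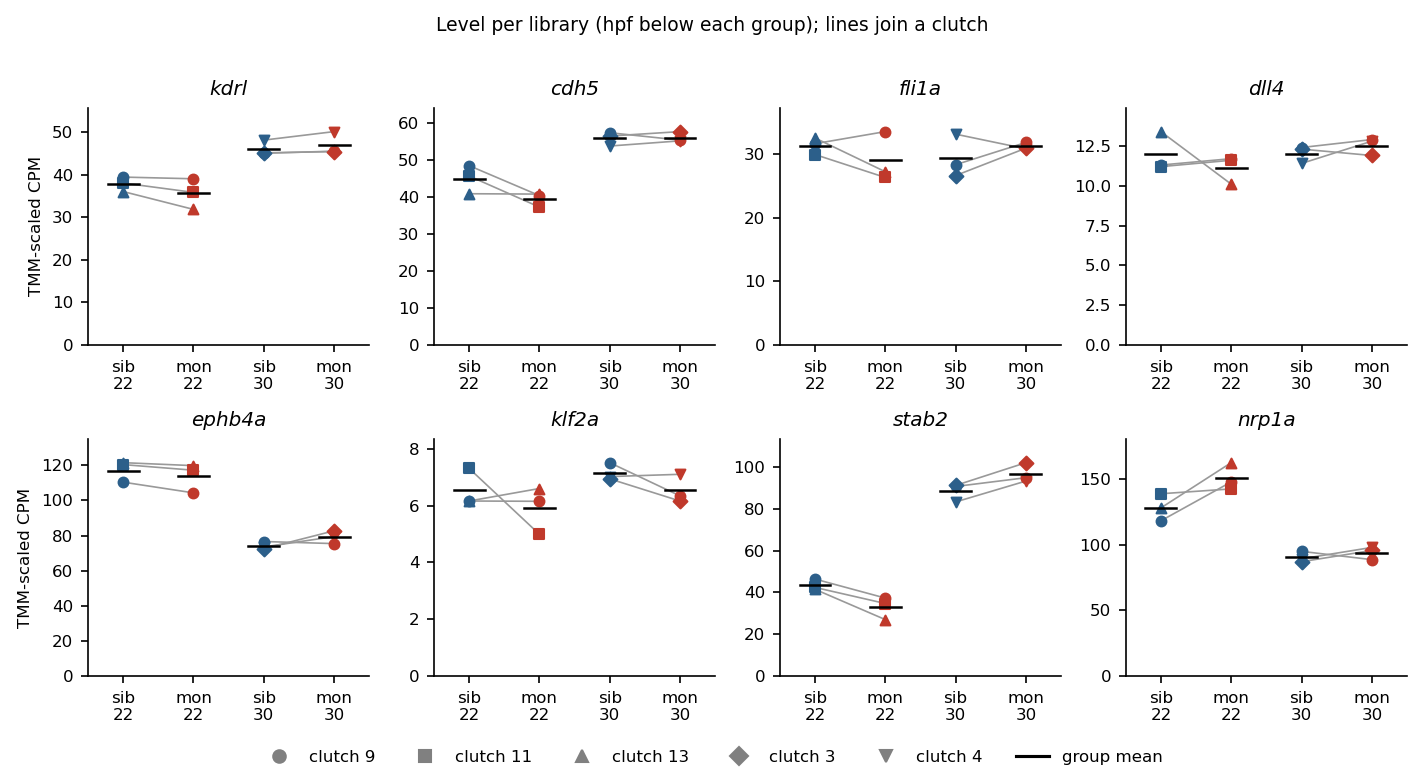
TMM-scaled CPM of 8 endothelial genes in each library, by group (sib, sibling). Symbols mark the clutch, grey lines join the sibling and mon pools of a clutch, and black bars are group means of 3 libraries. The 22 hpf mon libraries of stab2 lie below and those of nrp1a above all sibling libraries of that stage, and the groups of kdrl, fli1a, dll4, ephb4a and klf2a overlap at both stages.

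Scavenger receptor and fenestra genes had the lowest median of the 6 role groups at 22 hpf. All 5 tested genes of this group had a log2 fold change below 0, with a median of -0.326, where the medians of the other 5 lay between -0.073 and 0.068. None of the 5 was called. The smallest p was that of stab2, a receptor that clears hyaluronan from the blood in veins. It stood at 37.3, 34.7 and 27 in mon and 46.4, 42.4 and 41.5 in siblings at 22 hpf. Every mon library lay below every sibling library, and the log2 ratios within clutches 9, 11 and 13 were -0.31, -0.29 and -0.62. The log2 fold change was -0.39 ± 0.10 (edgeR adjusted p = 0.116). The clutch block called it, at -0.40 ± 0.06 (edgeR adjusted p = 2.43e-06), and so did the fit without the mon library of clutch 9, at -0.49 ± 0.10 (edgeR adjusted p = 0.0399). Over the 19 alternatives its adjusted p ran from 2.43e-06 to 0.658, and it was lower in mon in all of them.

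At 30 hpf the order of stab2 was the other way round, 102.1, 93.3 and 94.9 in mon and 91.2, 83.3 and 90.7 in siblings. Every mon library then lay above every sibling library, with a log2 fold change of 0.13 ± 0.09 (adjusted p = 1.0 in edgeR). The difference of the mon effects between the stages was 0.53 ± 0.13 (edgeR adjusted p = 0.523). In the block fit it was 0.53 ± 0.08 (edgeR adjusted p = 7.53e-06), the only call among the 39 genes for this difference, where the block called 0.482% of all genes in either direction and 0.22% as higher. Without the block 0 of 39 were called, against 0.0872% of all genes. An unadjusted p under 0.05 was found for 4 of the 39 without the block, against 698 of all 21778 genes. With the block it was found for 8 of the 39, against 7.71% of all genes. A total of 28 genes had a higher mon effect at 30 than at 22 hpf and 11 a lower one, and over all genes 11103 were higher and 10675 lower.

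No other gene of this group was called by the block at either stage. The mannose receptor gene mrc1a, a marker of veins and lymphatics, stood at 8.96, 6.54 and 5.48 in mon and 13, 6.82 and 6.57 in siblings at 22 hpf. Its clutch 9 libraries were the highest of their groups, so the ranges overlapped although mon was lower in all 3 pairs, and the log2 fold change was -0.33 ± 0.25 (edgeR adjusted p = 1.0). At 30 hpf mrc1a stood at 44.2, 43.7 and 45.4 in mon and 44.1, 40.3 and 48.6 in siblings, and differed by 0.00 ± 0.21 on the log2 scale. The lymphatic hyaluronan receptor gene lyve1b stood at 0.0484, 0.318 and 0.913 in mon and 0.509, 0.448 and 1.33 in siblings at 22 hpf, and at 3.35, 3.51 and 3.63 in mon and 3.83, 3.31 and 4.08 in siblings at 30 hpf. It had 1 to 86 counts per library, and its interval at 22 hpf was -2.15 to 0.41, too wide to show a difference of the size seen for stab2. The scavenger receptor gene stab1 and plvapb, which encodes the protein of fenestral and caveolar diaphragms, differed by -0.10 ± 0.11 and -0.30 ± 0.21 at 22 hpf and by 0.05 ± 0.10 and 0.12 ± 0.18 at 30 hpf. Macrophages also express scavenger receptors. The 15 matched macrophage markers summed to 17.0 to 19.5 CPM in mon and 17.2 to 17.9 CPM in siblings at 22 hpf. Of the 9 tested, 0 were called, against 0.445% of all genes. MFAP4 ENSDARG00000038681 and MFAP4 ENSDARG00000038683 were at 0 in all mon libraries of that stage. In siblings they stood at 0, 0 and 0.0513 and at 0.0509, 0 and 0 CPM, so both were near the floor in either group.

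Averaged over the 39 genes, the log2 CPM was 3.78 ± 0.03 (SD, n = 3) in mon and 3.85 ± 0.05 in siblings at 22 hpf, and 4.10 ± 0.04 and 4.06 ± 0.03 at 30 hpf. Within clutches 9, 11 and 13 at 22 hpf the average differed by -0.106, -0.072 and -0.015 (mon minus sibling), and within clutches 3, 4 and 9 at 30 hpf it was higher by 0.061, 0.043 and 0.024. The 22 hpf groups did not overlap and the 30 hpf groups did. The gap at 22 hpf was narrow, with the highest mon library at 3.81 and the lowest sibling library at 3.819. Among the role groups, that of the 5 scavenger receptor and fenestra genes differed most at 22 hpf, by -0.686, -0.204 and -0.339 within clutches 9, 11 and 13. In clutch 9 the low-count gene lyve1b had a log2 ratio of -2.04, at 0.0484 CPM in mon. The others of this group ran from -0.53 to -0.24 in that clutch. The average without lyve1b alone was not taken. Averaged over the 34 genes outside this role group, the differences were -0.02, -0.052 and 0.033, and mon and siblings overlapped. The role group was singled out by its 22 hpf values, so the average without it describes these data and is not a test. Over all tested genes the same average was 2.90 in both groups at 22 hpf, and 3.05 in mon and 3.06 in siblings at 30 hpf.

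The change from 22 to 30 hpf is counted over 38 genes, without the low-count gene lyve1b. Its level reached 0.487 CPM, that of 10 counts in the median library, in all 30 hpf libraries but only in some at 22 hpf. In siblings 7 of the 38 were called and changed at least 2-fold, 6 of them higher at 30 hpf, against 17.0% of all genes (12.8% higher, 4.23% lower). No difference between mon and siblings reached 2-fold. In siblings 24 genes were called at any size, 12 higher at 30 hpf and 12 lower, against 43.1% of all genes (22.4% higher, 20.7% lower). In mon 24 were called, 13 higher and 11 lower, against 42.3% (22.1% and 20.2%). The same direction was called in both for 22 genes (11 higher, 11 lower), against 35.6% of all genes, and 34 of 38 had the same sign. The 2 called in siblings alone were fli1b and rasip1, the 2 called in mon alone were tie1 and she, and 12 were called in neither. For none of these 4 was the difference between the stage changes itself called in edgeR, with or without the block; the lowest adjusted p was 0.0612, for tie1 with the block, and the unadjusted p was 0.0182 without it. Apart from clutch 9, the stages came from different clutches, so that stage and clutch can be told apart only in part.

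**Figure D3:**
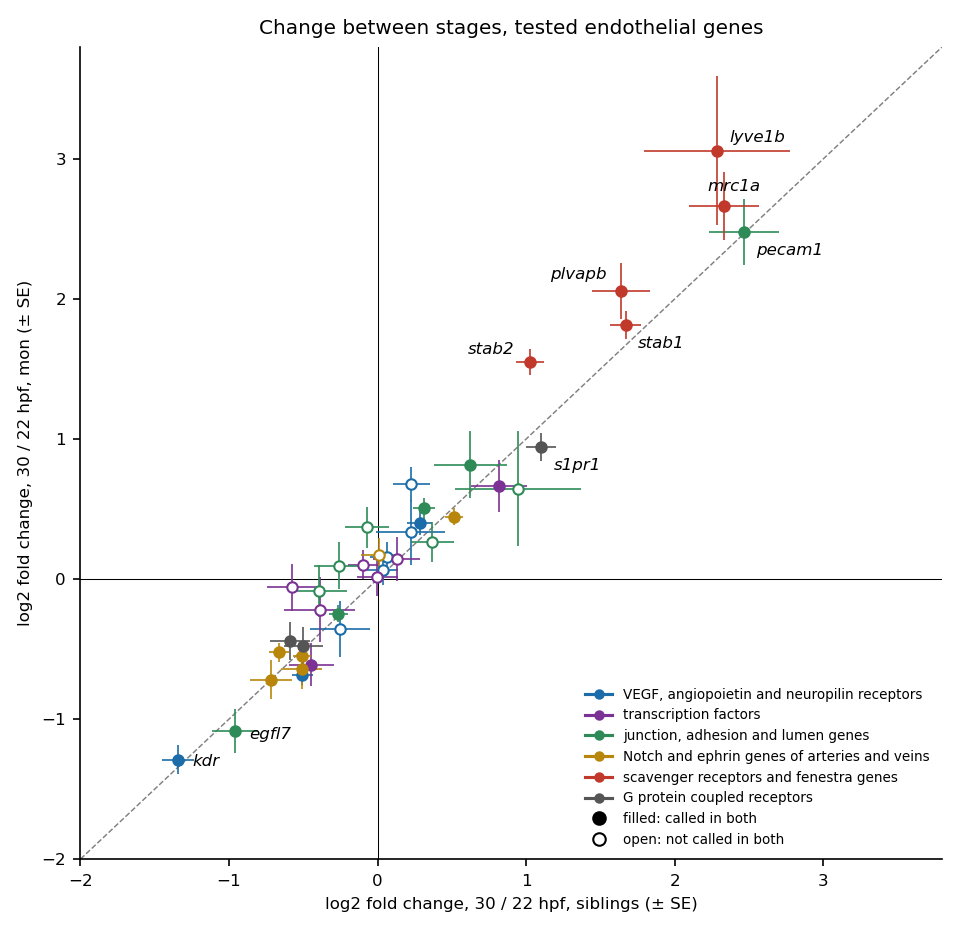
Change of the 39 tested endothelial genes from 22 to 30 hpf, in siblings (horizontal) and in mon (vertical), as log2 fold changes with standard errors. Filled points were called in both, colours mark the role, and the dashed line marks equal change. The 5 scavenger receptor and fenestra genes, pecam1 and s1pr1 lie at the upper right, and kdr and egfl7 at the lower left.

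Leaving lyve1b aside, the 4 scavenger receptor and fenestra genes rose in both groups, with a median log2 fold change of 1.66 in siblings and 1.94 in mon, where the median of all genes was -0.017 and -0.011. The largest rise in siblings was that of pecam1, an adhesion molecule of endothelial junctions. Its level went from 2.29, 1.14 and 1.39 at 22 hpf to 7.79, 10.6 and 8.31 at 30 hpf in siblings, and from 1.65, 1.59 and 1.23 to 8.03, 9.06 and 8.02 in mon. The stages did not overlap in either group, and the log2 fold changes were 2.47 ± 0.24 and 2.48 ± 0.24 (edgeR adjusted p = 1.93e-07 and 2.12e-07). The next was mrc1a, given per library above, which rose by 2.33 ± 0.24 in siblings and 2.66 ± 0.24 in mon (edgeR adjusted p = 8.88e-06 and 3.69e-06). The fitted change of lyve1b, which had few counts at 22 hpf, was 2.29 ± 0.49 and 3.06 ± 0.53. Further, stab1, plvapb and stab2 rose by 1.67, 1.64 and 1.03 in siblings and by 1.81, 2.06 and 1.55 in mon.

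Of 9 tested macrophage markers, 6 were called higher and 0 lower at 30 hpf in each of the groups. Of all genes, 22.4% were called higher in siblings and 22.1% in mon. The 15 matched macrophage markers summed to 17.2 to 17.9 CPM in siblings and 17.0 to 19.5 CPM in mon at 22 hpf. At 30 hpf the sums were 39 to 41.4 and 42.1 to 47.2 CPM, without overlap. A large part of these sums was lcp1, at 14.2, 17.5 and 15.7 in siblings and 21.5, 26.5 and 19.4 in mon. Of the 9 tested markers, 6 had a log2 fold change (mon over sibling) below 0 at 30 hpf and 3 above. Between mon and siblings at 30 hpf the block called 2 of the 9 higher and 1 lower in mon, against 3.09% of all genes. The part of macrophages in the rise of stab1, mrc1a and lyve1b was not tested. Other genes that rose in both groups were the receptor gene s1pr1 (1.1 in siblings and 0.95 in mon on the log2 scale), sox18 (0.82 and 0.67), CLDN5 ENSDARG00000014059 (0.62 and 0.82), notch3 (0.51 and 0.45), cdh5 (0.31 and 0.51) and kdrl (0.28 and 0.40). The clutch block, in which clutch 9 alone links the stages, called 42.7% of all genes in siblings and 41.4% in mon. With it the rise of kdrl was no longer called in siblings (edgeR adjusted p = 0.214), and that of sox18 no longer in mon (edgeR adjusted p = 0.101).

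The largest fall was that of kdr, whose values per library are given above, at -1.34 ± 0.11 in siblings and -1.29 ± 0.10 in mon (edgeR adjusted p = 1.72e-08 and 2.77e-08). The paralogue kdrl was called in the opposite direction. Next was egfl7, a secreted factor of growing vessels. It went from 12.1, 13.3 and 15.7 to 7.79, 7.62 and 5.69 in siblings and from 14.8, 17.4 and 13.7 to 7.98, 7.38 and 6.34 in mon, without overlap between the stages. The log2 fold changes were -0.96 ± 0.16 and -1.08 ± 0.16 (edgeR adjusted p = 8.92e-05 and 2.45e-05).

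Of the 6 Notch and ephrin IDs, 4 were called lower at 30 hpf in both groups. Of all genes, 20.7% were called lower in siblings and 20.2% in mon. EFNB2 ENSDARG00000074050 fell most, from 18.4, 19.2 and 20.5 to 13.5, 11.6 and 10.1 in siblings and from 21.6, 17.9 and 22.6 to 14.9, 12.1 and 10.7 in mon. The stages did not overlap, and the log2 fold change was -0.72 ± 0.14 in siblings and -0.72 ± 0.14 in mon (edgeR adjusted p = 0.000485 in both). The other copy, EFNB2 ENSDARG00000020164, changed by -0.51 and -0.55, hey2 by -0.51 and -0.64, and the venous ephb4a by -0.66 and -0.52 on the log2 scale. The arterial dll4 was not called, at 0.01 ± 0.12 and 0.17 ± 0.12. Falls in both groups were also called for nrp1a, aplnra, aplnrb, sox7 and CLDN5 ENSDARG00000043716, with log2 fold changes from -0.68 (nrp1a in mon) to -0.25 (CLDN5 ENSDARG00000043716 in mon). With the clutch block aplnra was called in neither group (edgeR adjusted p = 0.218 and 0.249), and in siblings neither sox7 (edgeR adjusted p = 0.0919) nor rasip1 (edgeR adjusted p = 0.367) was called, while the fall of esama was (edgeR adjusted p = 0.0356). In mon the rise of she was lost with the block (edgeR adjusted p = 0.27). The flow-responsive klf2a was not called between the stages, at 0.13 ± 0.16 in siblings and 0.15 ± 0.16 in mon.

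Genes that act around the endothelium were compared from further lists. Of 7 tested genes of endothelial and blood specification, 0 were called at 22 hpf, against 0.445% of all genes. At 30 hpf 2, tal1 and lmo2, were called lower in mon than in siblings, against 0.79% of all genes in either direction. The factor tal1, which is needed for both blood and endothelial precursors, stood at 20.8, 22.4 and 21.2 in mon and 32.3, 37.8 and 36.9 in siblings at 22 hpf, and at 9.31, 4.28 and 7.49 in mon and 16.8, 15.7 and 19.2 in siblings at 30 hpf. All mon libraries lay below all sibling libraries of their stage, with log2 fold changes of -0.73 ± 0.18 and -1.30 ± 0.19 (edgeR adjusted p = 0.161 and 0.00263). The block called tal1 at 22 hpf as well, at -0.73 ± 0.10 (edgeR adjusted p = 6.17e-07). Its partner lmo2 stood at 20.4, 16.4 and 13.9 in mon and 23.7, 23.2 and 18.5 in siblings at 22 hpf, and at 4.04, 3.69 and 4.65 in mon and 6.54, 7.77 and 10.7 in siblings at 30 hpf. The ranges of lmo2 overlapped at 22 hpf and not at 30 hpf, with log2 fold changes of -0.36 ± 0.17 and -1.01 ± 0.20 (edgeR adjusted p = 1.0 and 0.0162). Without clutch 9 at both stages the 30 hpf calls were lost, with log2 fold changes of -1.27 for tal1 (edgeR adjusted p = 0.296) and -0.89 for lmo2 (edgeR adjusted p = 0.102). For tal1 the call was also lost with the 30 hpf libraries alone, at -1.30 (edgeR adjusted p = 0.0547), and for lmo2 in limma-voom (adjusted p = 0.139) and without the 30 hpf mon library of clutch 3 or 4 or the sibling library of clutch 9 (edgeR adjusted p = 0.0964, 0.13 and 0.112). Over the 5 fits in which lmo2 lost its call its log2 fold change ran from -0.995 to -0.79.

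Of 32 further endothelial genes, 1 was called, AQP1 ENSDARG00000023713, which was lower in mon than in siblings at 22 hpf. Of all genes, 0.445% were called at that stage. AQP1 encodes a water channel of endothelium and of red blood cells. Its level was 3.05, 2.41 and 1.5 in mon and 9.26, 7.86 and 4.31 in siblings at 22 hpf, and 30.7, 30.6 and 34.4 in mon and 45.5, 49.8 and 44.9 in siblings at 30 hpf. The mon libraries lay below the sibling libraries at both stages, with log2 fold changes of -1.61 ± 0.27 and -0.55 ± 0.20 (edgeR adjusted p = 0.0192 and 0.641). The 22 hpf call was kept in 12 of 19 alternatives. It was lost with no filter on low counts (edgeR adjusted p = 0.0548), in limma-voom (adjusted p = 0.0662), with the 22 hpf libraries alone (edgeR adjusted p = 0.152), without clutch 9 at both stages (edgeR adjusted p = 0.115), without the mon library of clutch 11 or 13 (edgeR adjusted p = 0.127 and 0.057) and without the sibling library of clutch 11 (edgeR adjusted p = 0.111). In these 7 fits the log2 fold change ran from -1.63 to -1.39. The block called AQP1 at both stages (edgeR adjusted p = 6.17e-15 and 4.3e-07). It also called dab2, an endocytic adaptor gene, lower in mon at 22 hpf (log2 fold change -0.75 ± 0.14, edgeR adjusted p = 0.00017) and ephb4b lower at 30 hpf (-0.19 ± 0.06, edgeR adjusted p = 0.0433). Red blood cell markers were lower in the same libraries, and their part in the levels of tal1, lmo2 and AQP1 was not tested.

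**Figure D4:**
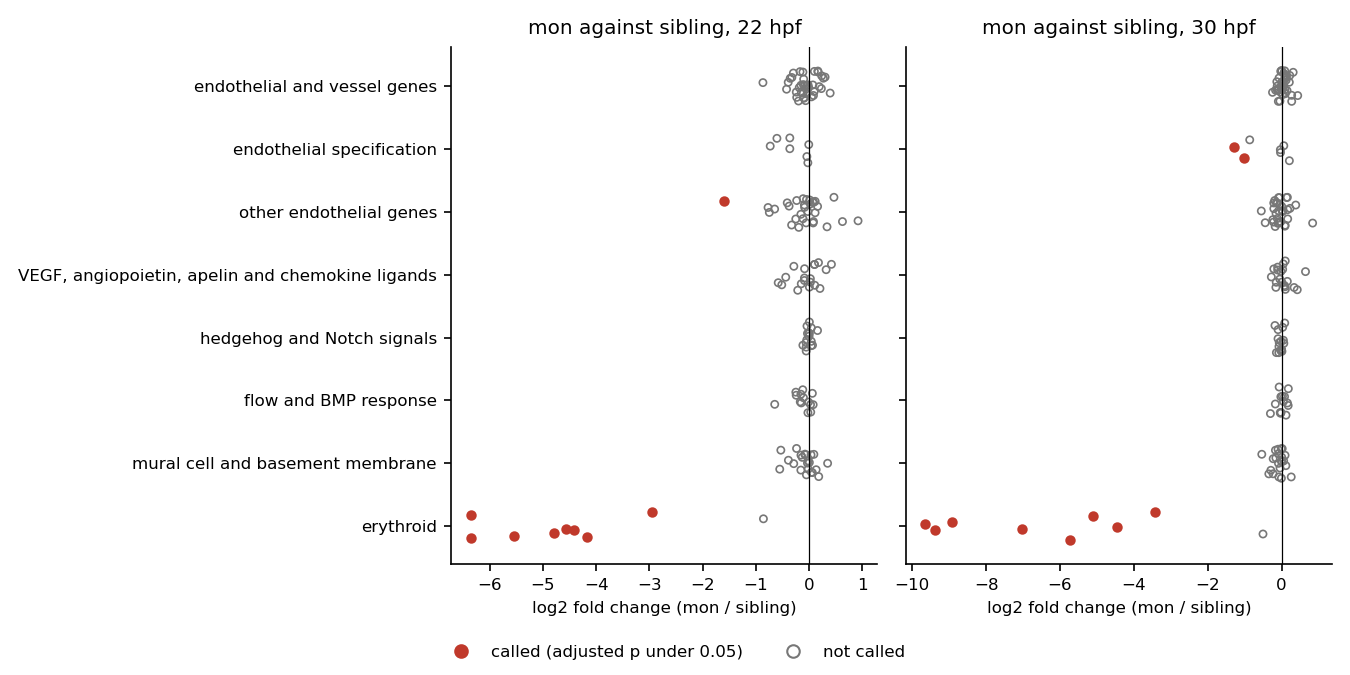
Log2 fold change (mon over sibling) of each tested gene, by gene list, at 22 hpf (left) and 30 hpf (right); the horizontal scales differ. Filled red points were called at an adjusted p under 0.05 in edgeR, open points were not, and vertical scatter within a list is for display. In the fit shown, which has no clutch block, none of the 39 endothelial and vessel genes was called, against 8 of 9 red blood cell markers at each stage.

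In the remaining lists no gene was called at either stage without the block. These held 19 tested genes for VEGF, angiopoietin, apelin and chemokine signals, with receptors such as CXCR4 and ACKR3 beside the ligands. A further 16 were listed for hedgehog and Notch signals, 14 for the response to flow and BMP, and 22 for mural cells and basement membrane. Among the 16, the listed Notch ligand dld was matched only by the orthologue symbol DLD, which names a mitochondrial enzyme. That ID may therefore not be a Notch gene. With the block 1 gene of the ligand and receptor list, CXCR4 ENSDARG00000057633, and the mechanosensitive channel gene piezo1 were called lower in mon at 22 hpf. At 30 hpf the block called NOTCH1 ENSDARG00000103554 and the channel gene abcc9 lower and klf6a higher.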

How the data were processed

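The authors deposited 1 table of raw counts per gene, as whole numbers for 12 libraries of ribosomal RNA-depleted, strand-specific RNA. The build was GRCz11, and the tools named are HTSeq, TopHat2 2.0.11, Cufflinks 2.2.1, cutadapt and FastQC, per the submitters' processing notes. The sources used here give neither the annotation release nor the strand setting. Antisense or near-identical genes may therefore share reads.

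The 21778 genes kept by filterByExpr were fitted with edgeR 4.0.16 (R 4.3.3; TMM, glmQLFit with robust estimation, glmQLFTest), all 12 libraries in 1 fit of 4 groups with 8 residual degrees of freedom. Contrasts were mon against sibling at each stage, their difference, and 30 against 22 hpf within each genotype. P-values were adjusted by the Benjamini-Hochberg method across the whole table. Standard errors are the log2 fold change divided by the square root of F. On simulated data the fit recovered 80.2% of 91 genes changed 2-fold and 99.1% of 106 changed 4-fold at 22 hpf. The simulated counts had the same spread for all genes and no clutch or stage effect, unlike these libraries. Smaller changes were not simulated, so the shares do not give the power for differences of the size described here.

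Libraries pair by clutch, since each clutch is 1 mating. Over the 6 clutch pairs, mon and sibling deviations correlated at 0.509 to 0.69. The 4-group fit did not use this pairing, and the fit with the clutch block did. At 22 hpf they called 97 and 322 of all genes. Alternatives were a clutch block, RLE scaling, no filter, limma-voom 3.58.1, DESeq2 1.42.0, the compared libraries alone, and leaving out each library or clutch 9. No library repeated another of its group (chi-square per gene 5.51 to 8.27).

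The members and lists were chosen with earlier results of these data known. Values per library are given for members called in a mon contrast with or without the block, the 4 of smallest p at each stage, the 3 largest rises and falls in siblings, and kdrl, cdh5, fli1a, dll4, ephb4a, flt4, stab2 and klf2a. Of the other lists, genes called without the block are named with values. Of 168 names in those lists 10 matched no ID.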

Additional observations from a re-analysis of the deposited data

Results flagged for a closer look

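The mon effect on stab2 differed between the stages in the fit with clutch as a block, by 0.53 ± 0.08 in log2 units (edgeR adjusted p = 7.53e-06). Its log2 fold change in that fit was -0.40 ± 0.06 at 22 hpf and 0.13 ± 0.05 at 30 hpf, lower in mon in 3 of 3 pairs at 22 hpf and higher in 3 of 3 at 30 hpf. Without the block the difference was 0.53 ± 0.13 (edgeR adjusted p = 0.523), and over the 18 alternatives the adjusted p ran from 7.53e-06 to 1.0.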

How the results depend on the processing

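Between mon and siblings, the count of called members changed under 2 of the settings run. With the replicate block (clutch) 2 members were called between mon and siblings at 22 hpf and 1 for the difference between the stages, where the fit without the block called 0. Leaving out single libraries gave 0 to 1 at 22 hpf, the 1 being stab2 without the mon library of clutch 9, and 0 for the difference. At 30 hpf the count was 0 under every alternative run. Between the stages it was 20 to 25 in siblings and in mon, lyve1b included. Over all genes, the counts were 97 (60 to 322 over the alternatives, highest with the block and lowest without clutch 9) at 22 hpf, 172 (95 to 673, likewise) at 30 hpf and 19 (9 to 105, likewise) for the difference; DESeq2 called 157 and 33 at 22 hpf and for the difference, and the 22 hpf libraries alone gave 63.

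Of 3666 member values under the alternatives, 3598 stayed on their side of the threshold or within the replicate spread, 57 lost and 7 gained a call, 4 uncalled ones moved further, and no called one changed direction. Lost calls were those of 8 members in siblings and 7 in mon between the stages. The weakest were rasip1 in siblings (edgeR adjusted p = 0.0493, called in 6 of 19 alternatives), she in mon (0.0499, 6 of 19) and CLDN5 ENSDARG00000014059 in siblings (0.0496, 9 of 19), and then sox7 (13 of 19) and fli1b (16 of 19) in siblings. Without clutch 9 the calls of hey2 and of CLDN5 ENSDARG00000043716 were lost in both groups (edgeR adjusted p = 0.0699 and 0.0591, and 0.0611 and 0.066), and tie1 was gained in siblings (0.0483). The cause of these changes was not tested. Depth limits ecscr and lyve1b most, the low-count members, and plvapa could not be tested.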
